A study of Mus musculus with 6 samples.

Results

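The T cell receptor alpha variable segments of mouse, the Trav genes, were examined in bulk RNA-seq of CD8+ T cells purified from liver, in a group of mice labelled CUMS and a control group labelled wild type. Members were all genes of the deposited count table whose name starts with Trav. There were 128 of them among 54532 genes, 108 annotated as V genes and 20 as V pseudogenes. The submitters' design text gives the question as injury of liver CD8+ T cells under chronic stress. The labels do not spell CUMS out and give no strain, age or sex for either group. There were 3 libraries of each group, and nothing says whether each library stands for its own animals. The spread behind each p-value is thus that of these libraries, and it may be technical.

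The alpha chain of the T cell receptor is made in the thymus by joining 1 Trav segment to 1 Traj (joining) segment, and the joined exon is spliced to the constant gene Trac. Early joins use Trav segments close to the Traj cluster, and later rounds on the same chromosome reach segments farther away. Conventional CD8+ T cells carry many different joins, whereas invariant natural killer T cells use Trav11 with Traj18, and mucosal-associated invariant T (MAIT) cells use Trav1 with Traj33. The mouse locus also holds internal repeats, so that many segments exist as near-identical copies marked d or n in their names. Some segments, with dv in their names, are shared with the delta chain.

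All 128 segments lay on the plus strand of chromosome 14 between 52427928 and 53977678 (mm10), upstream of the 60 Traj genes (54155005 to 54218842) and of Trac (54220521 to 54224206). The 5 segments with the highest mean share of Trav reads are shown first. These are the last 60 bases of each segment, 5' to 3', from the GENCODE M21 transcripts, with the codon of the conserved cysteine that ends the germline framework in capitals. It follows TACTTC in all 5, and TACTTCTG was found on the sense strand in the last 60 bases of 65 of the 128 segments (50.8%).
Trav9-2: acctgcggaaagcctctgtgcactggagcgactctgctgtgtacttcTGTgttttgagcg
Trav3-3: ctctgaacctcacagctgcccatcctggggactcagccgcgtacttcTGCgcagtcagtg
Trav7-4: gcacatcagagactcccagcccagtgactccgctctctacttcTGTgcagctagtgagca
Trav14-1: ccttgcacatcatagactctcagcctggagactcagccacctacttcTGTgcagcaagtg
Trav14-2: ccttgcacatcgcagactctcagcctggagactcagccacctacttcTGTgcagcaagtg
Trav14-1 and Trav14-2 are close relatives. The other 3 belong to different families, which is how the number after Trav is assigned.

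Copies of a segment can be so alike that a read cannot be assigned to 1 of them. The copies of Trav10 and Trav11 show both cases in a 240-base stretch that stops 3 bases before the end of Trav10 and Trav11, with bases that differ from the first of each set in capitals. Trav10d had 1 difference from Trav10 and Trav10n had 3.
Trav10: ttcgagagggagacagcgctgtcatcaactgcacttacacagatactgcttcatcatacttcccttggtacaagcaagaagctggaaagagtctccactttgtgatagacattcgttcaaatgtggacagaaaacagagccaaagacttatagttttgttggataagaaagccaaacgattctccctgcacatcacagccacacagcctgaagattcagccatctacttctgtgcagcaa
Trav10d: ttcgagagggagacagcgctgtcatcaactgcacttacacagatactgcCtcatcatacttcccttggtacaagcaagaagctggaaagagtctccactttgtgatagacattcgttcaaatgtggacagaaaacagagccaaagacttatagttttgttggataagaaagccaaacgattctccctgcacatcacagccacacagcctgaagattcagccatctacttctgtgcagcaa
Trav10n: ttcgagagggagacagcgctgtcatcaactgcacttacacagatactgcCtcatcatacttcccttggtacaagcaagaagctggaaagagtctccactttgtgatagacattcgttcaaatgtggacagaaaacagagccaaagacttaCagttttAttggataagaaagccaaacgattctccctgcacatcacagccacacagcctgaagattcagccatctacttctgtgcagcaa
Trav11d had 0 differences from Trav11 in this stretch, and the pseudogene Trav11n had 6.
Trav11: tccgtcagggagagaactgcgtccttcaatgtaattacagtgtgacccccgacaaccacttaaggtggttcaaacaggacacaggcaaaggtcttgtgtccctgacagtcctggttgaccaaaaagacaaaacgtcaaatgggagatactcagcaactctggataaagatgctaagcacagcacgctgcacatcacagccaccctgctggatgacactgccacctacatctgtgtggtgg
Trav11d: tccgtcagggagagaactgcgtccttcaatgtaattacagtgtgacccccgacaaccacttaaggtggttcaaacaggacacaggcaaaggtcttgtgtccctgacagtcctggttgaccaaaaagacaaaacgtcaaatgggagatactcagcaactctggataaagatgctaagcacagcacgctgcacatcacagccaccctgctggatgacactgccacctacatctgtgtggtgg
Trav11n: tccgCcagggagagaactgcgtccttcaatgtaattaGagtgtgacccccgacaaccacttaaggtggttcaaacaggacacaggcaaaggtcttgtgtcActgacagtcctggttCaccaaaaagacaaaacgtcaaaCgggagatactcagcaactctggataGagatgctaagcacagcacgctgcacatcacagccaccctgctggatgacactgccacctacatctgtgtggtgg

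Trav reads were few. The segments together received 2046, 1302 and 1348 counts in CUMS replicates 1, 2 and 3, and 1739, 1376 and 1727 counts in control replicates 1, 2 and 3. That was 0.00763% to 0.0114% of library totals of 14902248 to 18023206. In CPM, the count scaled to library size with TMM factors (trimmed mean of ratios), the summed Trav level was 115, 80.2 and 89.0 CPM in CUMS libraries and 98.5, 77.4 and 98.9 CPM in control libraries. The groups overlapped, with means of 94.7 ± 18.1 CPM in CUMS and 91.6 ± 12.3 CPM in control (SD, n = 3 each; exact permutation p = 0.9, two-sided). With 3 against 3 libraries that test cannot go below 0.1. The constant gene Trac had 6861 to 8170 counts in CUMS and 6776 to 7665 in control, and the Trav reads per 100 Trac reads were 25.0, 19.0 and 18.6 in CUMS and 22.7, 20.3 and 24.9 in control. How the authors' counting treated reads that cross from a Trav into a Traj segment is not given in the sources used here.

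Facts of the libraries touch these values. CUMS replicates 2 and 3 held reads for 15012 and 14670 genes, against 20292 in CUMS replicate 1 and 17616 to 19713 in control. The defining CD8 T cell markers Cd8a and Cd8b1 had 12310 to 21691 counts in every library. The 3 CD8 T cell markers summed to 2190 to 2380 CPM in CUMS and 1620 to 1800 CPM in control. Of these, 1 of 3, Cd8a, was higher in CUMS by edgeR (adjusted p = 0.0225). Markers of other cells were also read. The 5 CD4 T cell markers summed to 183 to 208 CPM in CUMS and 388 to 444 CPM in control, with 4 of 5 lower in CUMS by edgeR. Over all genes tested, edgeR called 0.946% lower and 0.363% higher in CUMS. The 9 myeloid markers summed to 1350 to 1830 CPM in CUMS and 2460 to 3700 CPM in control, with 4 of 9 lower. The 5 gamma delta T cell markers summed to 44.3 to 60.9 CPM in CUMS and 85 to 99.4 CPM in control, with 1 of 5 lower. B cell markers (86.8 to 112 CPM in CUMS, 94.9 to 107 CPM in control) and NK cell markers (63.7 to 70 CPM in CUMS, 62.3 to 72.4 CPM in control) overlapped, and none of either passed. For 4 hepatocyte markers the sums were 9.32 to 14.7 CPM in CUMS and 6.76 to 8.04 CPM in control, with none passing. CD4 and innate-like T cells carry Trav segments too, and bulk libraries cannot tell fewer cells of a type from less RNA per cell. The part of these cells in the Trav values was not tested.

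Of the 128 segments, 31 had no read in any library, 97 had at least 1, and 37 had 100 or more over all 6 libraries. Many of the unread segments were ones whose sequence recurs elsewhere in the locus. Among the 31, 22 had over 90% of their 100-base stretches repeated in another Trav or Trdv segment, and 12 were pseudogenes. Together these classes covered 28 of the 31. The median share of repeated stretches was 100% in the 31 unread segments, 100% in the 24 segments with 1 to 9 reads, 24.6% in the 36 with 10 to 99 reads, and 14.5% in the 37 with 100 or more. Across all 128 segments the total count and the repeated share had a Spearman rho of -0.48, a description in which segments share libraries and descent. Trav9n-3 went the other way, with 177 reads although 100% of its stretches recur in other segments. Reads inside such stretches match more than 1 segment, and how the counting treated them is not known here, so a low count of a copy need not reflect how often it is used.

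**Figure D1:**
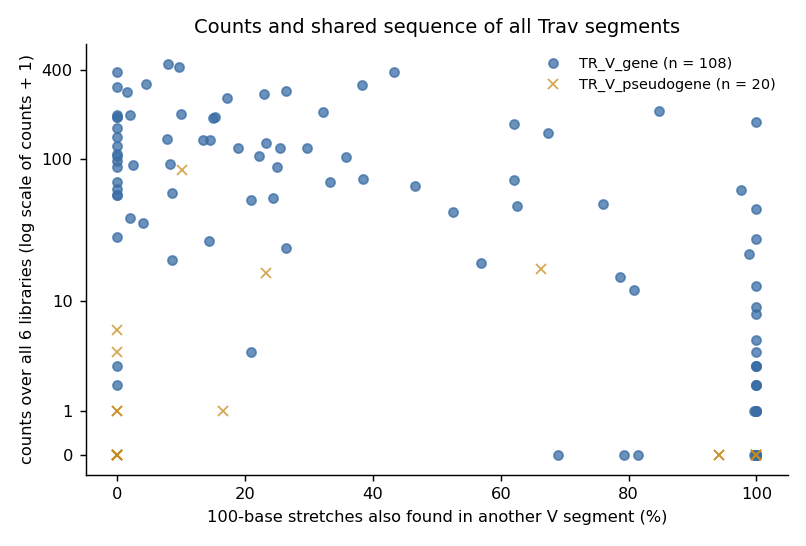
Counts over all 6 libraries (y axis, log scale of counts + 1) of each of the 128 Trav segments against the share of its 100-base stretches that also occur in another V segment (x axis, %), with V genes as circles and V pseudogenes as crosses. Unread segments gather at the right edge, where 22 of the 31 lie above 90%, and the unread segments at 0% are pseudogenes.

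This limit covers the invariant natural killer T cell segment. Trav11 had 0 counts in every library. Trav11d had 2 counts in CUMS replicate 1 and 0 in the other 5 libraries, where 0 of 1302 to 1739 Trav reads allows a share of up to 0.173% to 0.230%. All 100-base stretches of Trav11d, and 99.6% of those of Trav11, occur in another segment, so a read inside them matches more than 1 segment. Traj18, the joining segment of the same receptor, had 20, 0 and 0 counts in CUMS and 34, 16 and 2 counts in control (edgeR adjusted p = 0.777). Trav1, the MAIT segment, shares no 100-base stretch with another segment. It had 8, 34 and 0 counts in CUMS and 13, 7 and 0 counts in control, and its partner Traj33 had 15, 0 and 0 in CUMS and 10, 3 and 15 in control. Both groups held libraries with no Trav1 read. Of 7 innate-like T cell markers none passed the threshold of 0.05 in edgeR's quasi-likelihood test, with a median log2 fold change of -0.81, against -0.01 over all genes tested. Zbtb16, the transcription factor PLZF that both lineages need, had 54, 71 and 112 counts in CUMS and 161, 156 and 139 counts in control, without overlap between the groups (edgeR adjusted p = 0.320).

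Reads were spread over many segments, and no segment dominated a library. The leading segment of each library held between 4.94% and 9.94% of its Trav reads. Trav9-2 (53590857 to 53591514) was the most used on average, at 3.62%, 3.53% and 9.94% in CUMS and 5.0%, 4.0% and 2.66% in control. CUMS replicate 3 stood out, with 134 of 1348 reads (95% exact interval 8.39% to 11.7%, counting error only), and the remaining CUMS values lay within the control range. Trav3-3, the second in order, had 3.37%, 4.53% and 3.78% in CUMS and 5.75%, 2.76% and 5.73% in control. Trav7-4 had 2.93%, 6.61% and 1.19% in CUMS and 3.11%, 4.14% and 6.66% in control, a spread as wide within each group as between them. Trav14-1 was the segment whose control libraries lay closest together among these 4, at 3.11%, 3.20% and 3.82%, with 5.62%, 3.0% and 5.27% in CUMS.

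The next segments in order of mean share were Trav14-2, Trav16n, Trav5-4, Trav12-2, Trav9-1 and Trav14n-3. Trav14-2 had 66, 0 and 89 counts in CUMS and 44, 47 and 76 counts in control. It was the next most abundant after Trav9-2 in CUMS replicate 3 and unread in CUMS replicate 2. Trav14n-3 was also unread in CUMS replicate 2, with 61, 0 and 61 counts in CUMS and 35, 68 and 49 in control. The groups overlapped in share for each of the 10 leading segments, and their log2 fold changes ran from -0.95 ± 0.73 (SE) for Trav9-1 to 0.57 ± 0.51 for Trav9-2. Neighbours in this order were not tested against each other. For the leading pair, group means of 5.70% for Trav9-2 and 3.90% for Trav3-3 in CUMS came with an SD of 3.68 and 0.588 points.

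**Figure D2:**
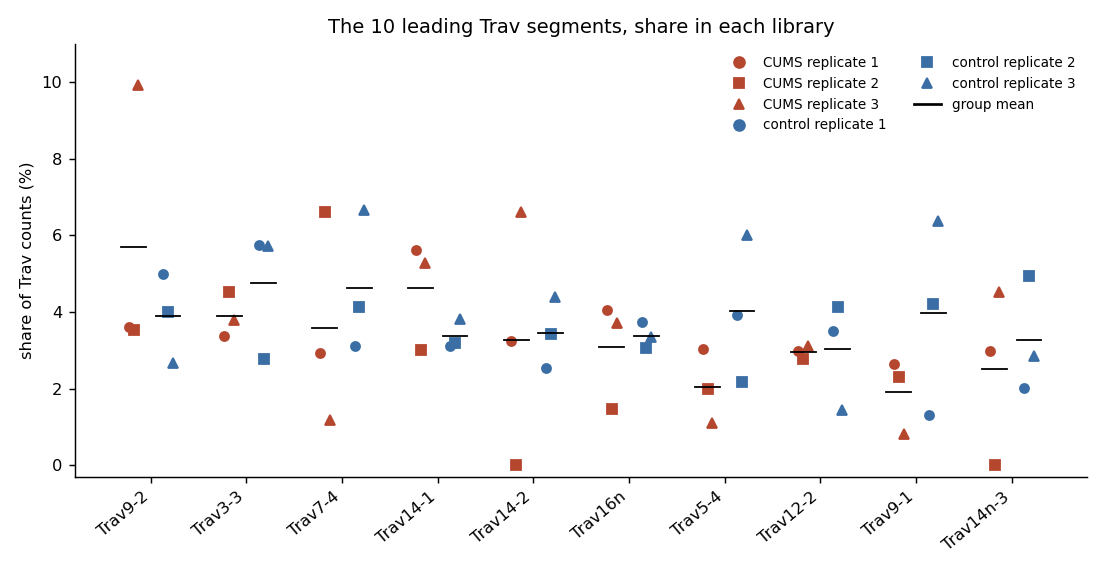
Share of Trav counts (y axis, %) of the 10 segments with the highest mean share over all libraries (x axis), with CUMS libraries left and control libraries right for each segment; points are libraries and black lines group means (n = 3 each). CUMS replicate 3 reaches 9.94% for Trav9-2, and CUMS replicate 2 is at 0 for Trav14-2 and Trav14n-3.

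No single segment passed the test between the groups. Of the 128, 53 passed edgeR's filter on low counts, which asks for enough reads in several libraries. Its quasi-likelihood test over 14054 genes (Benjamini-Hochberg adjusted over all of them) called 0 segments higher and 0 lower in CUMS. In that test 1 segment had an unadjusted p under 0.05. DESeq2, run on the 24044 genes with a read, 97 segments among them, also called 0, with 3 at an unadjusted p under 0.05. It gave no adjusted p to some segments, Trav10d and Trav13-2 among them, so its 0 calls do not cover all 97. Over all genes tested, 1.31% were called, 0.363% higher and 0.946% lower, and 15.3% had an unadjusted p under 0.05. By sign, 27 segments were higher and 26 lower, and their median log2 fold change was 0.01. In 7 of the 53 the CPM values of the groups did not overlap, against 22.7% of all genes tested. Fitted changes past 2-fold were found for 14 of the 53 (26.4%), against 9.4% of all genes tested, at the low counts of these segments.

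The segment with the smallest p was Trav10d (ENSMUSG00000094792, 52810934 to 52811496), a copy of Trav10. It had 14, 21 and 10 counts in CUMS and 2, 0 and 0 counts in control. All CUMS libraries were above all control libraries. Trav10d passed the filter on low counts only through the CUMS libraries, where it was high. Its entry into the test was thus tied to its direction, and the values below are a description. The rate was 24.2 times higher in CUMS, with an exact counting interval of 6.32 to 206 that leaves out the spread between libraries, and edgeR gave an adjusted p of 0.222. Its fitted log2 fold change was 4.35 ± 1.60 (SE), and 6.95 without control replicate 1, where the control libraries left had no read and the fit gives no bound. In share of Trav reads the groups overlapped for both of its relatives, although Trav10 was among the 7 segments without overlap in CPM. Trav10 held 2.49%, 3.07% and 2.15% of Trav reads in CUMS and 1.90%, 2.47% and 1.22% in control, and Trav10n 0.538%, 2.0% and 0.0742% in CUMS and 0.633%, 0.218% and 1.22% in control. Trav10d differs from Trav10 at 1 base in the stretch shown above, and reads that do not cover a differing base match both.

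The other segments with the largest positive fitted changes were Trav6-2, Trav15-1-dv6-1, Trav4-3 and Trav8-2. Trav6-2 had 16, 18 and 21 counts in CUMS and 1, 0 and 13 counts in control, with no overlap in share and a log2 fold change of 2.05 ± 1.42 (SE; edgeR adjusted p = 0.555). Without control replicate 3, which held 13 of the 14 control reads, that change was 4.99. For Trav15-1-dv6-1, which can also be joined in the delta chain, the counts were 57, 71 and 13 in CUMS and 20, 11 and 25 in control (log2 fold change 1.40 ± 0.81). Trav4-3 stood at 1.28 ± 0.79, and Trav8-2, a pseudogene, had 27, 0 and 30 counts in CUMS and 12, 5 and 10 in control. For Trav15-1-dv6-1, CUMS replicate 3 lay within the control range in share, so the fitted change rests on CUMS replicates 1 and 2.

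At the other end were Trav13-2, Trav13-4-dv7, Trav4-4-dv10, Trav6d-5 and Trav19. Trav13-2 had 13, 0 and 8 counts in CUMS and 24, 15 and 44 counts in control (log2 fold change -1.89 ± 1.24, edgeR adjusted p = 0.534). Trav4-4-dv10 had 12, 1 and 11 counts in CUMS and 45, 18 and 17 in control (-1.62 ± 1.12), and Trav19, a segment without a near copy, had 26, 0 and 10 in CUMS and 36, 24 and 25 in control (-1.17 ± 1.21). These 3, picked for their large fitted falls, did not overlap in share of Trav reads between the groups, although Trav19 overlapped in CPM. Of all genes tested, 22.7% did not overlap in CPM. Trav13-4-dv7 had 26, 0 and 0 counts in the CUMS libraries, against 21, 35 and 36 in control. Trav6d-5 showed the same arrangement, with 13, 0 and 0 counts in CUMS and 17, 17 and 7 in control. For these 2 segments CUMS replicate 1 was near the control values, and the fitted falls of 1.80 ± 1.45 and 1.61 ± 1.57 rest on the libraries with no read.

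Some segments were high in 1 or 2 libraries. The 5 segments whose highest library exceeded their median library the most, among those averaging at least 1%, peaked in CUMS replicate 2 or CUMS replicate 3. Trav8d-1 had 8, 26 and 59 counts in CUMS and 8, 9 and 8 in control, a highest share 7.83 times its median. Trav7n-4 had 29, 91 and 0 in CUMS and 21, 23 and 27 in control, so that it led CUMS replicate 2 and was unread in CUMS replicate 3. Trav13n-4 had 12, 16 and 58 in CUMS and 10, 13 and 31 in control, and Trav6-3 had 15, 26 and 85 in CUMS and 44, 26 and 14 in control. Trav15-1-dv6-1, given above, was the other one. In share of Trav reads, CUMS replicate 1 was within the control range for Trav7n-4 and Trav13n-4, below it for Trav8d-1 and Trav6-3, and above it for Trav15-1-dv6-1. Trav8d-1, with 118 counts in all, did not enter the edgeR test, whose filter asks for enough reads in several libraries.

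Profiles over all segments set CUMS replicates 2 and 3 apart. Taking the share of reads that would have to be moved between segments to turn 1 library's profile into another's, CUMS replicate 1 differed from the 3 controls by 22.7%, 23.6% and 27.2%, and the controls from each other by 26.7% to 33.9%. CUMS replicates 2 and 3 differed from the controls by 40.2% to 50.8%, from CUMS replicate 1 by 44.3% and 41.8%, and from each other by 54.9%. Those 2 libraries were thus farther from each other than either was from any other library.

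Evenness of usage was lower in the same libraries. The Shannon evenness (entropy of the shares over that of equal shares among the 97 segments with reads) was 0.868, 0.777 and 0.768 in CUMS and 0.861, 0.857 and 0.816 in control. The effective number of segments, the inverse of the Simpson index, was 43.2, 30.2 and 25.9 in CUMS and 42.3, 41.7 and 32.2 in control. CUMS replicate 1 was the most even library by both, and CUMS replicate 3 the least. The group means of 33.1 ± 9.02 in CUMS and 38.7 ± 5.64 in control differed by less than the spread in CUMS (exact permutation p = 0.4, adjusted to 0.667 over 10 measures). At a common depth of 1302 Trav reads, 78.3, 46.0 and 49.9 segments would be seen in CUMS and 74.0, 79.5 and 63.3 in control (exact permutation p = 0.3, adjusted 0.667). Without CUMS replicates 2 and 3 the CUMS value exceeded the control mean in each, by 0.0232 in evenness, 4.46 effective segments and 6.06 segments seen. The 10 most abundant segments of each library held 36.0%, 46.4% and 53.3% of its Trav reads in CUMS and 37.0%, 38.1% and 46.7% in control.

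The joining segments and the beta chain V segments, which the choice of members did not use, were also least even in CUMS replicates 2 and 3. Traj evenness was 0.885, 0.761 and 0.783 in CUMS and 0.876, 0.873 and 0.866 in control (exact permutation p = 0.4, adjusted 0.667). The effective number of beta chain V segments was 13.1, 11 and 11.6 in CUMS and 13.5, 13 and 13 in control (exact permutation p = 0.3). In both sets CUMS replicates 2 and 3 lay below all other libraries, whereas CUMS replicate 1 lay within the control range for beta V segments and above it for Traj, at 31.9 effective Traj segments against 28.9 to 31.3.

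**Figure D3:**
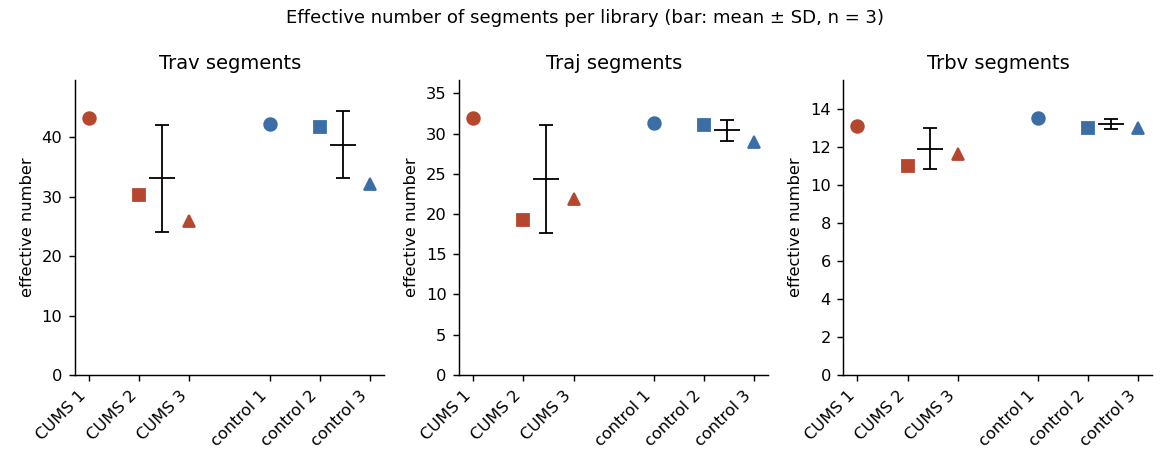
Effective number of Trav, Traj and Trbv segments (y axes) in each library, CUMS left and control right, with bars for the group mean and SD (n = 3 each). CUMS replicates 2 and 3 are lowest in all panels, at 30.2 and 25.9 for Trav, and CUMS replicate 1 lies with the controls.

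Many genes of low level were unread in CUMS replicates 2 and 3, Trav segments among them. Among the 37 segments with 100 or more reads over all libraries, 10 had no read in CUMS replicate 2 and 5 had none in CUMS replicate 3, whereas none was unread in any of the other 4 libraries. Among segments averaging 1 to 2 CPM, 27.3% and 22.7% of 22 were unread in CUMS replicates 2 and 3, against 19.9% and 22.5% of 1242 other genes at that level. At 0.5 to 1 CPM the values were 36.8% and 52.6% of 19 segments, and 40.8% and 45.6% of 1585 other genes. At 2 to 5 CPM, 3 of 13 segments (23.1%) were unread in CUMS replicate 2, compared with 3.90% of 1488 other genes and 3.12% of 128 other genes of at most 600 bases, the length range of the segments. In CUMS replicate 3 none of the 13 was unread. Segments averaging 1 to 5 CPM had a median coefficient of variation of 64.2% within CUMS and 38.9% within control, and other genes of at most 600 bases had 63.0% and 34.7%. The part of this in the lower evenness was not tested.

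**Figure D4:**
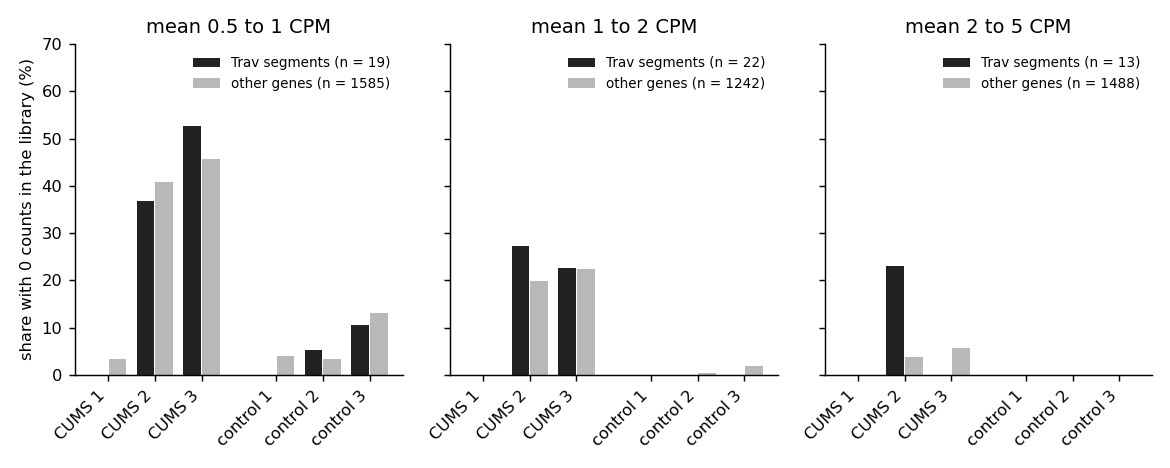
Share of Trav segments (black) and of all other genes (grey) with 0 counts in each library (y axis, %), for genes of 3 ranges of mean CPM, CUMS left and control right. Unread genes are frequent in CUMS replicates 2 and 3 for both sets, at 27.3% and 22.7% of segments between 1 and 2 CPM.

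Position in the locus was compared between the groups by splitting the 128 segments into 3 nearly equal parts in order along the chromosome. The 42 segments nearest to Traj held most of the reads, 65.9%, 53.3% and 60.8% in CUMS and 64.5%, 63.2% and 65.1% in control. None of these 42 is marked d or n, whereas most segments of the other parts are such copies. Reads of near-identical copies can match more than 1 segment, so a part's share need not reflect how often it is used. The part of read assignment in these shares was not tested. The 43 farthest from Traj held 11.5%, 16.9% and 13.1% in CUMS and 11.2%, 10.5% and 9.09% in control. These groups did not overlap, with means of 13.8 ± 2.76% in CUMS and 10.2 ± 1.05% in control, and the exact permutation p of 0.1 is the smallest that 3 against 3 libraries can give (adjusted 0.667 over 10 measures). CUMS replicate 1 lay just above the highest control, and without CUMS replicates 2 and 3 the difference was 1.30 points in place of 3.59. The largest rises within this part were those of Trav8d-1, Trav10d, Trav6-2, Trav3-1, Trav2 and Trav1, with differences of 1.73, 0.975, 0.971, 0.823, 0.586 and 0.582 points of share. Other segments of this part went the other way, with the largest falls for Trav6d-6, Trav6d-5 and Trav8d-2 (-0.673, -0.661 and -0.572 points). Trav3-1, Trav2, Trav6d-6 and Trav8d-2 are named because of these values. The middle 43 segments held 26.2 ± 3.63% in CUMS and 25.5 ± 1.02% in control.

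**Figure D5:**
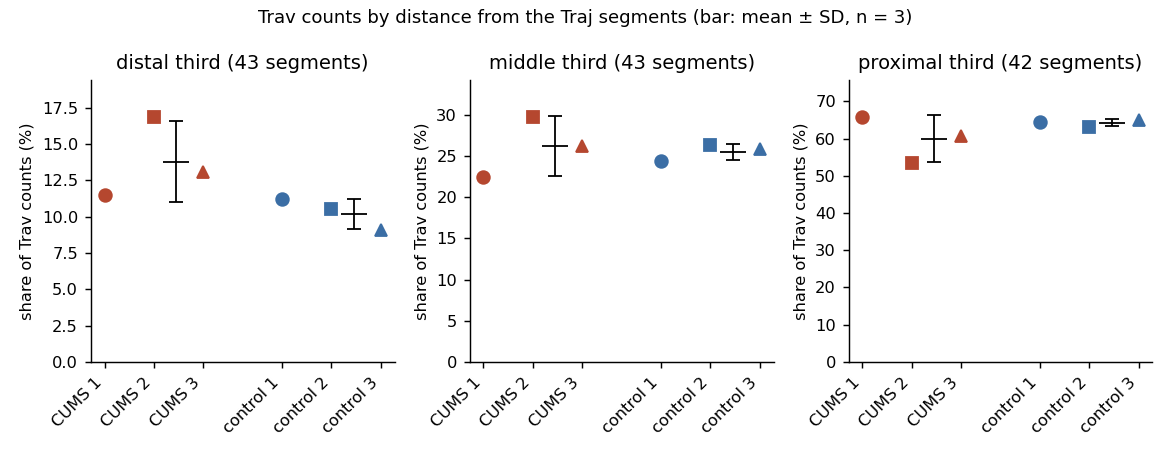
Share of Trav counts (y axes, %) held by the 43 segments farthest from the Traj cluster, the 43 in the middle and the 42 nearest to it, per library, CUMS left and control right; bars are group means and SD (n = 3 each). The farthest segments hold 11.5% to 16.9% in CUMS and 9.09% to 11.2% in control.

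When segments were grouped by sharing with the delta chain, invariant receptors, copy or pseudogene status, the shares of CUMS and control overlapped. The 10 segments shared with the delta chain held 10.6%, 11.9% and 6.82% of Trav reads in CUMS and 12.6%, 9.3% and 10% in control (exact permutation p = 0.7). Trav1, Trav11 and Trav11d together held 0.489%, 2.61% and 0% in CUMS and 0.748%, 0.509% and 0% in control (exact permutation p = 0.9). Copies marked d held 11.4 ± 1.84% in CUMS and 10.1 ± 1.11% in control, copies marked n 17.6 ± 2.86% and 17.1 ± 1.58%, and pseudogenes 1.44 ± 1.25% and 1.16 ± 0.288%. The 5 leading segments together held 18.8%, 17.7% and 26.8% in CUMS and 19.5%, 17.5% and 23.3% in control (exact permutation p = 0.8).

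Genes of receptor assembly gave the setting for these counts. Of 8 genes of the T cell receptor complex, 1 was lower in CUMS and 0 higher, against 0.946% lower and 0.363% higher of all genes tested. That was Trat1, which encodes an adaptor that binds the receptor complex, with 867, 881 and 611 counts in CUMS and 1662, 1709 and 1958 counts in control (log2 fold change -1.08 ± 0.14, edgeR adjusted p = 0.00958). For Trac the log2 difference was 0.17 ± 0.10, short of the threshold (edgeR adjusted p = 0.506). Of 13 genes of V(D)J recombination, the reaction that joins the segments, 10 were tested and none passed in edgeR. The recombinase gene Rag2 had no read, and Rag1 had 0, 0 and 21 counts in CUMS and 6, 6 and 0 in control. Polm, a polymerase that fills in the joins, was higher by 0.73 ± 0.19 on the log2 scale without passing (edgeR adjusted p = 0.0866). Tcrg-C2, a constant gene of the gamma chain, fell by 1.32 ± 0.21 on the log2 scale in CUMS (edgeR adjusted p = 0.0183), and the delta constant gene Trdc, which lies in the alpha locus, had 310, 228 and 503 counts in CUMS and 511, 508 and 772 in control (edgeR adjusted p = 0.329).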

How the data were processed

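The data were raw read counts per gene, deposited by the authors for 6 libraries (3 CUMS, 3 control). The submitters' processing notes list DESeq2 1.20.0, featureCounts 1.5.0-p3, HISAT2 2.0.5, fastp and the build mm10. Strand setting, annotation release and handling of reads that match several places: not given in the sources used here. Coordinates are those of the deposited table, and all 128 segments had the same ones in GENCODE M21, whose transcripts gave the sequences. Repeated sequence was the share of 100-base stretches of a segment's longest transcript found in another Trav or Trdv transcript.

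The counts of all 54532 genes entered a fit in edgeR 4.0.16 under R 4.3.3 (filterByExpr, TMM, quasi-likelihood F test in its legacy form, Benjamini-Hochberg over 14054 genes, threshold 0.05), and with DESeq2 1.42.0 as an alternative. The edgeR fit was tested on simulated counts with known fold changes and the same dispersion for all genes. How often it would find a change at the counts of these segments is not given here. Shares were of summed Trav counts, and single values were compared by exact two-sided permutation over libraries, with adjustment over 10 measures. Shares of 1302 to 2046 reads are imprecise; exact 95% intervals, and limits of 3 counts where none was seen, cover counting error only. Segments named were the 10 with the highest mean share, the 5 largest fitted changes in each direction, the 5 with the highest ratio of top to median library share among those averaging at least 1%, any past the threshold (none), Trav1, Trav11 and Trav11d, and listed pathway or marker genes a result turns on. Trav10, Trav10n, Trav11n, Trav9n-3, Trav3-1, Trav2, Trav6d-6 and Trav8d-2 were added after their values were seen. Members and lists were chosen with earlier results of these data known. Library factors, filters, the replicate number as a block, summed copies and each library left out were tried. Figures used matplotlib 3.10.9.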

Additional observations from a re-analysis of the deposited data

How the results depend on the processing

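Of 14 alternatives (1 with DESeq2, the rest with edgeR, leaving out each library included), each called 0 segments higher and 0 lower. They tested from 7 segments (stricter filter) to 97 (no filter, and DESeq2), against 53, so the stricter filter says little about most segments. The smallest adjusted p of a segment ran from 0.0848 (without CUMS replicate 1) to 0.652. Calls over all genes ran from 9 (without CUMS replicate 2) to 704 (no filter on low counts), against 184. Without CUMS replicates 2 and 3, where the lone CUMS library is assumed to vary like the controls, 7 genes were called, which says little about the segments. Differences are CUMS minus control. Without CUMS replicates 2 and 3 together the sign turned for evenness (0.0232), the effective number (4.46), segments seen (6.06), the 5 leading segments (-1.33 points), the 42 segments nearest Traj (1.68 points) and Traj evenness (0.0131). The 5 leading segments also turned with the most abundant one left out (-0.723 points). Leaving out 1 library at a time, differences spanned 0 for the summed level (-7.01 to 10.4 CPM), the 5 leading segments (-1.88 to 2.68 points), Trav1 with Trav11 and Trav11d (-0.174 to 1.13) and the delta-shared segments (-1.95 to 0.593). Other differences kept their sign but not their size: evenness (-0.0723 without CUMS replicate 1 to -0.0223 without CUMS replicate 3), the effective number (-10.7 without CUMS replicate 1 to -2.05 without CUMS replicate 3), and, from without CUMS replicate 1 to without CUMS replicate 2, segments seen (-24.3 to -8.16), Traj evenness (-0.0994 to -0.0377), the segments nearest Traj (-7.22 to -0.908 points) and those farthest (4.74 to 2.06 points). Of the 23 segments that the stated rule names and edgeR tested, 9 turned sign (segments named after their values were seen were not rerun). Of those keeping it, leaving out CUMS replicate 1 gave -2.553 for Trav13-2, -2.267 for Trav19 and -1.566 for Trav5-4, and left Trav13-4-dv7 and Trav6d-5 with no CUMS read. Trav4-4-dv10 had -1.028 without control replicate 1, Trav9-1 -0.302 without control replicate 3 and Trav8-2 0.571 without CUMS replicate 3. Leaving out 1 library gave log2 fold changes of -0.258 to 0.259 for Trav12-2, -0.307 to 1.478 for Trav13n-4, -0.758 to 0.593 for Trav14-2, -0.733 to 0.371 for Trav14n-3, -0.485 to 0.350 for Trav16n, -0.382 to 1.230 for Trav6-3, -0.942 to 0.035 for Trav7-4, -0.701 to 1.415 for Trav7n-4 and -0.025 to 0.869 for Trav9-2. Without CUMS replicates 2 and 3 they were -0.596 for Trav13n-4, 0.248 for Trav14n-3, 0.575 for Trav16n and -0.914 for Trav6-3. With summed Trav counts as library size, Trav12-2 had -0.035 and Trav14-2 -0.073. With a replicate block, which called 0 segments (71 of all genes, against 184), Trav14-2 had -0.784 and Trav7n-4 -0.196. Same-numbered libraries deviated together by r = 0.01, -0.04 and -0.04, so no pairing by number was seen. With 3 libraries per group these values cannot tell whether same-numbered libraries shared a batch. Summing named copies was not run for shares by position, since copies lie in different parts of the locus. The cause of these turns was not tested. The 1302 to 2046 Trav reads of a library limit the precision of every share.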

Other observations

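Families, taken as all segments with the same number, were compared after their values were seen. Of all genes tested, 22.7% did not overlap in CPM, but those genes had passed the filter on low counts. The families were not filtered, and some, such as Trav22 with no read, could not separate the groups. Of the 23 families, 3 did not overlap in share between the groups. These were Trav10 (3.71%, 6.68% and 2.97% in CUMS, against 2.65%, 2.69% and 2.43% in control), Trav15 (3.37%, 5.45% and 1.85% in CUMS, against 1.73%, 1.45% and 1.45%) and the single segment Trav19. Each had an exact permutation p of 0.1, the smallest the design allows. Trav14, the largest family by reads, held 16.5%, 5.68% and 18.8% in CUMS and 13.2%, 14% and 16.2% in control, so CUMS replicate 2 was the low library. Trav6 held 8.16%, 12.4% and 12.4% in CUMS and 9.09%, 9.08% and 5.44% in control. Trav13 was the most alike in the groups among families above 5%, at 7.23 ± 0.915% in CUMS and 7.26 ± 1.11% in control (SD, n = 3).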
